A study of Mus musculus with 2 samples.

Results

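The genes described here encode the proteins of the cytosolic ribosome of the mouse. They were chosen by symbol alone: Rpl or Rps followed by a number and its usual suffixes, the P-stalk genes Rplp0, Rplp1 and Rplp2, and Rpsa. The rule found 89 of the 53715 genes in the files, 53 named for the large subunit and 36 for the small. By the annotation (GENCODE M21), 83 of them are protein coding, and the other 6 (Rps4l, Rps12l1, Rpl32l, Rpl6l, Rps3a2 and Rps3a3) are processed pseudogenes whose symbols pass the rule. The cells were sorted as CD45.2-positive, CD3-negative and NKp46-positive, the gate for natural killer (NK) cells, from CT26 colon carcinomas that by the labels lack B2m, the light chain of MHC class I. By the sample titles, 1 group received IL-15SA and the other IL-15SA plus IL-21Fc, here called the combination. The labels used here do not state the mouse strain, the age, the doses or the times. Cells of a treatment were pooled into 1 single-cell library, so no difference below has a replicate check, and no test or p-value is given.

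A ribosome holds a single copy of nearly all of its proteins. Their messenger RNAs are among the most abundant in growing lymphocytes and share a pyrimidine-rich start, the 5′ terminal oligopyrimidine (TOP) tract, through which mTOR signalling controls their translation. Cytokines such as IL-15 are known to drive growth of NK cells through mTOR. A few ribosomal proteins have a second gene, a paralog, whose product can take the same place in the ribosome: Rpl22l1 for Rpl22, Rps27l for Rps27 and Rpl39l for Rpl39.

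The libraries held 8386 barcodes (IL-15SA) and 12435 barcodes (combination), with 30893388 and 35336180 UMIs (unique molecular identifiers, a count of tagged RNA molecules). "Under IL-15SA" and "under the combination" stand for values of these libraries, and pairs of values follow this order. After filters, 7967 and 11808 barcodes remained, and 60 barcode sequences occurred in both libraries. Clusters were made without the ribosomal protein genes, so that these genes did not define the states. Cluster 3 carried tumour or stroma markers and is called tumour-like. It held 6.63% (6.09 to 7.20) of the IL-15SA barcodes and 11.1% (10.5 to 11.7) of the combination barcodes, 528 and 1308 in number. Of the barcodes outside it, 94.5% and 93.3% had a UMI of Ncr1, the gene of NKp46, and these 7030 and 9792 Ncr1-positive barcodes are the NK set. Their median was 3201 and 2436 UMIs. Levels are CPM, UMIs per 1000000 of the summed UMIs of a set, and are not divided by gene length. All intervals are at 95% and cover counting error only.

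Of the 89 genes, 83 had at least 1 UMI and 80 reached 20 CPM in the Ncr1-positive barcodes of at least 1 library. Rpl39l reached it under the combination only. Among the 8 genes with the most UMIs under IL-15SA were Rpl32, Rps2, Rps27, Rpl41, Rpl5, Rpl34 and Rps19. Together the 8 took 27.8% of all ribosomal protein UMIs there and 28.9% under the combination. Rpl32, a large-subunit gene, led with 8138 CPM (8104 to 8172) under IL-15SA and 7704 (7671 to 7736) under the combination. Rps2, of the small subunit near the messenger RNA entry, followed with 7359 and 6482 CPM. The median over all 89 genes was 1385 CPM under IL-15SA and 1269 CPM under the combination.

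A total of 6 genes had 0 UMIs in both libraries: Rpl13, Rpl24, Rpl3l, Rpl10l, Rpl32l and Rps3a3. A count of 0 in the Ncr1-positive barcodes allows up to 0.113 CPM under IL-15SA and 0.108 CPM under the combination. Rpl13 and Rpl24 encode constitutive large-subunit proteins, so their 0 does not show that their RNA is absent. Rpl24 shares 47.0% of its exonic bases with another gene on the same strand, Gm28037, and Rpl13 shares 5.97% with Snord68 and Mir7079. Of the 83 protein-coding members, 26 share exonic bases with another gene on their strand. The assignment of reads over shared or near-identical sequence is not described in the labels, and its part in the zeros was not tested. Rpl29, Rpl26 and Rpl13a were also low, at 57.5, 55.3 and 137 CPM under IL-15SA. Where members are set beside each other, in the order of their levels or as shares of a pair, the values count the UMIs assigned to each gene in these files and not RNA per gene length.

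The starts of the paralog pairs, and of Rpl35, Rps12 and Rpsa, 3 genes of the extremes between the libraries, are given here to display the TOP-like letters. Each line runs from 15 bases before to the 15th base from the RefSeq start on, 5′ to 3′ on the gene's strand (GRCm38.p6). Capitals mark a C followed by at least 5 letters that are each C or T. Where such a run extends past an end of the printed bases, as in Rps27l, Rpl39 and Rps12, the part inside is in capitals.
Rps27, chr3:90213634-90213663, minus strand: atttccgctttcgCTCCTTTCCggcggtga
Rps27l, chr9:66946071-66946100, plus strand: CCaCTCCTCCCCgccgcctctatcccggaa
Rpl22, chr4:152325711-152325740, plus strand: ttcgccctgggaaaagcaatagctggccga
Rpl22l1, chr3:28805493-28805522, plus strand: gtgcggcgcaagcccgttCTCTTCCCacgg
Rpl39, chrX:37085208-37085237, minus strand: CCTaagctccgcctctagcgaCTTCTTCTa
Rpl39l, chr16:10170213-10170242, plus strand: ctcccaggCCTTTCCggatttccggtggtc
Rpl35, chr2:39005117-39005146, minus strand: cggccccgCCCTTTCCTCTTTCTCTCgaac
Rps12, chr10:23787195-23787224, minus strand: taccgtcatgcggccaccgccggCCTTTTC
Rpsa, chr9:120127751-120127780, plus strand: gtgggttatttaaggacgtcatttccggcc
For Rps27l and Rpl22, which have 2 entries, the first is printed, and the other holds no such run. Rpl22 and Rpsa are the lines without capitals, and Rpl35 has the longest, 18 letters.

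RefSeq start entries were found for 64 of the 89 members. Within 20 bases on either side of the start, 42 of these 64 genes (65.6%) held such a run on their own strand, against 32.7% of 26961 other genes. On the opposite strand the same letters occurred in 17.2% of the members and 35.7% of the other genes. The match describes letters and not a tested TOP tract. Of the members at 20 CPM or more, the 40 with a run had a median log2 ratio of -0.10 between the combination and the IL-15SA library, and the 19 without had -0.06. Below 0 lay 30 of the 40 and 15 of the 19, where 55.2% of all genes tested did. The members with a run were thus not more often lower.

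Ribosomal protein genes took nearly the same part of the RNA in both libraries, slightly less in the combination. In the Ncr1-positive barcodes they held 16.30% (16.28 to 16.31) of all UMIs under IL-15SA and 15.73% (15.72 to 15.75) under the combination, a difference of -0.57 percentage points. Per barcode, the median share was 16.1% with quartiles of 14.0% and 18.1% under IL-15SA. Under the combination it was 15.5% with quartiles of 13.6% and 17.6%. The ranges of the barcodes thus overlapped over most of their width. The SD over barcodes, 3.31 and 3.01 percentage points, was over 3 times the 0.695 and 0.761 that counting alone gives. The large subunit supplied 56.2% of ribosomal protein UMIs under IL-15SA and 56.5% under the combination.

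Depth moved with this share. Barcodes of 1000 to 1500 UMIs had a share of 14.6% under IL-15SA and 14.5% under the combination. At 1500 to 2000 UMIs the order turned, with 15.02% and 15.37%, and so it did at 2000 to 3000 UMIs, with 15.8% and 16.0%. These bins held 1024 and 1652 barcodes under IL-15SA and 1936 and 3014 under the combination. At 3000 to 4000 UMIs the shares were 16.6% and 16.0%, at 4000 to 6000 UMIs 16.6% and 15.7%, and at 6000 UMIs or more 16.6% and 15.8%. The share was thus lower in the combination in 4 of 6 bins and higher in the other 2. With barcodes of the libraries matched on their UMIs, 6204 in each, the summed shares were 16.2% and 15.8%.

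The share differed more between NK states than between the libraries. Cluster 7, led by the granzyme genes Gzmg, Gzmf and Gzmd, had the highest, 17.70% (17.67 to 17.73) under IL-15SA and 17.30% (17.26 to 17.33) under the combination. Cluster 5, led by Hspb1, Cd3g and Cd7 with Ly49 receptor genes, followed with 17.09% and 17.04%. Cluster 6, led by the mitosis and replication genes Nusap1, Esco2 and Rrm2, had the lowest, 15.07% (15.05 to 15.10) and 14.37% (14.35 to 14.39). The other 3 states lay between. They were cluster 1 (Cma1, Ccl5) with 15.88% and 14.90%, cluster 2 (Cd74, Cxcr6, Il7r) with 15.96% and 15.88%, and cluster 4 (Ifit2, Slfn5) with 15.73% and 15.20%. All 6 states had a lower share under the combination, by 0.98 percentage points in cluster 1 and by 0.05 in cluster 5. This direction depended on the clustering. At the finer Leiden resolution of 1.0, the state led by Gzmg and Gzmd was higher under the combination, with 18.16% and 18.46%. So was the state led by Hspb1 and Cd3g, with 17.35% and 17.42%, while the other states there were lower. Over the 6 states above, the span from highest to lowest was 2.63 percentage points under IL-15SA and 2.93 under the combination. Depth did not run with the order of the states, since cluster 6 had the highest median UMIs, 4706 and 3945, and cluster 7 the next, 4028 and 3294. With states matched on UMIs, cluster 6 remained lowest in both libraries, at 13.9% and 13.6%. Cluster 7 remained highest under IL-15SA with 17.5%, while under the combination cluster 5, with 17.2%, came above cluster 7, with 17.1%.

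**Figure D1:**
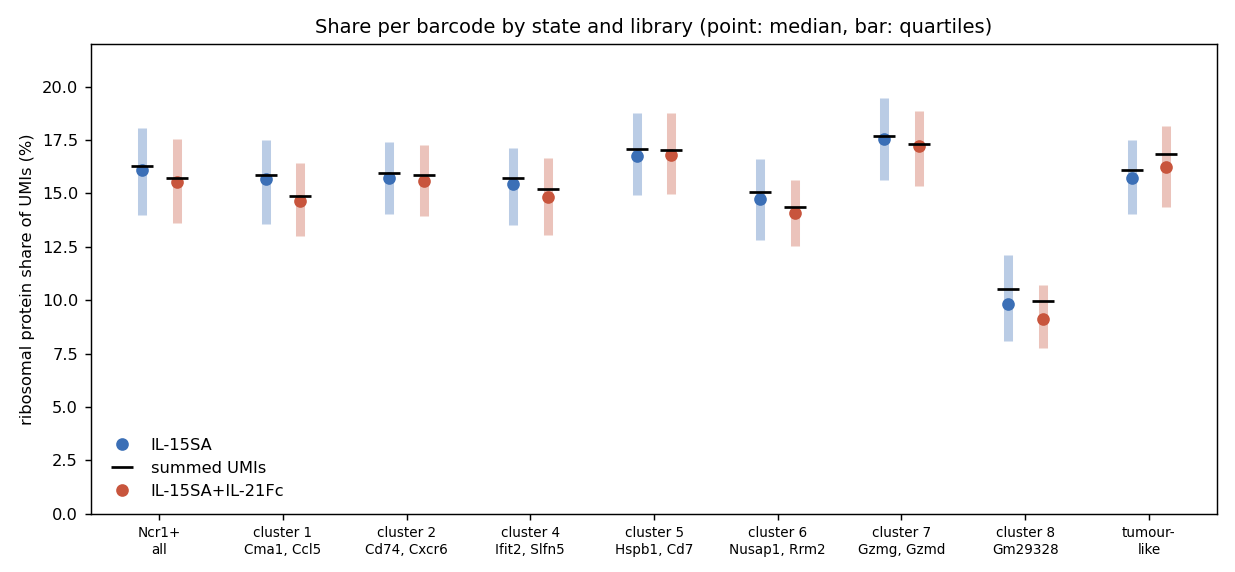
Share of UMIs in ribosomal protein genes, in percent, for all Ncr1-positive barcodes, 7 of their clusters and the tumour-like cluster, in each library. Points are medians over barcodes, coloured bars run between the quartiles and black dashes are the share of summed UMIs. Clusters 7 and 5 are high, cluster 6 is low among the 6 large states, and cluster 8 is lowest.

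A small cluster stood apart. Cluster 8, led by the long RNA Gm29328 and by Lsamp, held 65 and 44 Ncr1-positive barcodes, under the minimum of 100 set for a state. Its ribosomal protein share was 10.5% (10.4 to 10.7) under IL-15SA and 9.96% (9.75 to 10.2) under the combination. Of the members, 75 of 79 and 73 of 80 were below their level in the 6 states, with a median log2 difference of -0.64 and -0.61. Over all 7158 and 7358 genes tested, 32.8% and 35.1% were below, and the median was 0.50 and 0.60. Cluster 8 held only 136442 and 79704 UMIs, so genes of a few UMIs passed the filter of 20 CPM through it, where they were high. This raises the median over all genes and lowers their share below, so the contrast with the members is overstated. Malat1, a nuclear RNA, took 2.37% and 2.19% of its UMIs, against 0.696% and 0.724% over all Ncr1-positive barcodes. Mitochondrial genes took 2.74% and 2.47%, against 1.32% and 1.46%. The part of these barcodes' RNA quality in their low share was not tested.

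Across states the members moved together, and by little. In cluster 7, 79 of 79 members of the IL-15SA library and 79 of 80 of the combination library lay above their level in the other 5 states, where 40.3% and 39.1% of all genes tested did. The median log2 difference was 0.16 in each library, against -0.05 and -0.06 over all genes, and 5 members in each library were at least 1.2-fold higher, against 8.65% and 9.76% of all genes. Among them were Rps2, Rps18 and Rpl12 in both, with Rpl22l1 under IL-15SA and Rpl29 and Rpl7l1 under the combination. The member below 0 was Rpl39l. In cluster 6, 74 of 79 and 69 of 80 members lay below the other states, with a median of -0.17 in each library, where 46.7% and 47.5% of all genes lay below. At least 1.2-fold lower there were 9 and 14 members, against 14.4% and 18.5% of all genes, and Rps27l was at least 1.2-fold higher under the combination. Rpl34, for example, was lowest there in both libraries, and Rpl17, Rpl32, Rpl36, Rps18 and Rps27 were also past this size in both. Of the 80 members, 57 had their highest level in cluster 7 and 20 in cluster 5, and 45 had their lowest in cluster 6. How often other genes peaked or were lowest in these states was not counted, so these counts have no background. Median range over the 6 states was 0.29 on the log2 scale for the members and 0.51 for all genes tested. Among genes at 1000 CPM or more, where counting noise is small, it was 0.28 for 58 members and 0.50 for 95 other genes. The states were made from other genes and without the members, so a wider range of the other genes was favoured in advance. The comparison therefore cannot show that the members are steadier.

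Single members departed from this pattern. Rps2 had its highest level in cluster 7 but was not low in the dividing cells. It had 8532 CPM in cluster 7, 7407 in cluster 6 and 6205 to 6767 in the other 4 states of the IL-15SA library. Under the combination it had 7693 in cluster 7, 6824 in cluster 6 and 5330 to 6440 in the others. Rps27, a small-subunit zinc finger protein, ran the other way: it had 5326 and 6005 CPM in cluster 6, its lowest state, and 7244 and 8614 in cluster 5, its highest. The range over states passed 0.5 on the log2 scale for 4 members, Rpl39l, Rps27l, Rpl7l1 and Rpl13a, all under 400 CPM. Rpl13a, whose protein is also known for a role in interferon-gamma dependent translational silencing, was lowest in cluster 1, at 100 and 103 CPM, and highest in cluster 7, at 149 and 142. Rpl7l1, a paralog with a role in ribosome assembly, was lowest in cluster 5 of the IL-15SA library, at 68.9 CPM, and in cluster 4 of the combination library, at 53.2. Its highest level was in cluster 7, at 89.3 and 87.4.

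**Figure D2:**
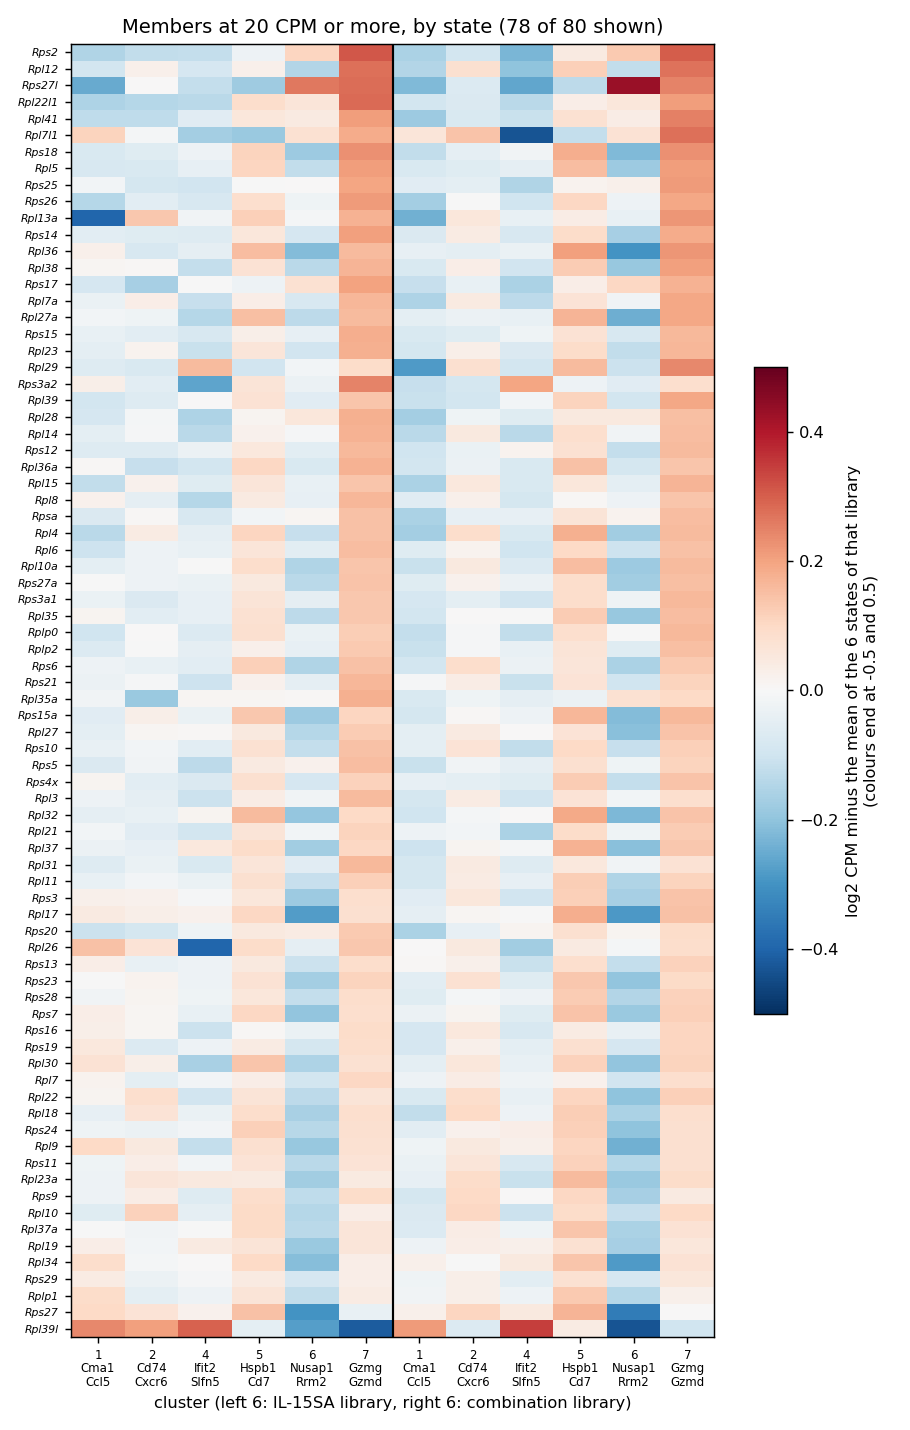
Level of 78 of the 80 members at 20 CPM or more in 6 NK states of each library, as log2 CPM minus the mean of that library's 6 states, ordered by cluster 7. Red is above and blue below the mean. The column of cluster 7 is red for nearly all members, and that of cluster 6 is blue for most, with Rps2 and Rps27l as exceptions near the top.

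Between the libraries most members were slightly lower in the combination. Of the 80 members, 60 lay below and 20 above a log2 ratio of 0 (combination over IL-15SA), where 55.2% of 5422 genes tested lay below. The median log2 ratio was -0.09, and -0.02 over all genes. At least 1.2-fold higher were 2 members, Rpl39l and Rpl29, and at least 1.2-fold lower was 1, Rpsa. Over all genes these shares were 8.26% and 7.3%, so members past this size were no more frequent than other genes. Rpl39l, at 12.6 and 24.7 CPM, passed the filter of 20 CPM only through the combination, the library where it was higher. In all 6 states 41 members were lower and 11 were higher in the combination, against 12.3% and 10.1% of all genes. Depth moved with the single ratios as well. With barcodes matched on UMIs, the median log2 ratio of the members was -0.06 and Rpsa, at -0.25, no longer passed 1.2-fold. Of the 35 members named by rule, 23 came nearer to 0 and 12 lay farther from it, 12 moved by over 1.5 times and 0 changed sign. Rps2, for example, moved from -0.18 to -0.04 and Rpl41 from -0.12 to -0.04, while Rps12 and Rpl35 moved by less than their intervals. The subunits did not separate: 33 of 47 large-subunit members lay below 0 with a median of -0.08, and 27 of 33 small-subunit members with a median of -0.10.

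Rpsa, the small-subunit protein that also serves as a laminin receptor, had 966 CPM (955 to 978) under IL-15SA and 784 (774 to 794) under the combination. It was 1.23-fold lower (1.21 to 1.26) in the combination and lower in each of the 6 states. Rpl12, a protein at the base of the stalk, had 634 and 531 CPM, Rps20 2651 and 2226, and Rps12 892 and 757. Their ratios were 0.838, 0.840 and 0.849, and each was lower in all 6 states. The pseudogene Rps3a2 had 60.6 and 50.4 CPM, a ratio of 0.833 (0.775 to 0.895), and its UMIs cannot be told apart from misassigned reads of its parent gene Rps3a1. With nothing added, its ratio was just past 1.2-fold, and with 1 CPM added just inside. In cluster 4 Rps3a2 was higher in the combination, at 48.1 and 58.9 CPM from 38 and 82 UMIs, and in the other states it was lower. The P-stalk genes Rplp0, Rplp1 and Rplp2, which recruit elongation factors, had 2773, 3378 and 2068 CPM under IL-15SA. Under the combination they had 2549, 3221 and 1914 CPM, lower in all 6 states, with a median log2 ratio of -0.11.

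The members that were higher in the combination were few and included some of the most abundant. Rps27 had 6267 CPM (6237 to 6297) under IL-15SA and 7491 (7459 to 7523) under the combination, a ratio of 1.195 (1.188 to 1.203) just inside the threshold. Rpl35, near the exit of the peptide tunnel, had 1712 and 1973 CPM with a ratio of 1.15 (1.14 to 1.17). Rpl34 had 3844 and 4183 CPM, and Rpl15 had 1095 and 1187. Rpl29 had 57.5 CPM (54.7 to 60.5) and 75.6 (72.4 to 78.9), a ratio of 1.32 (1.23 to 1.41). These 5 genes were higher in the combination in all 6 states. Rpl5, which with Rpl11 binds Mdm2 when ribosome assembly fails, had 5081 and 5280 CPM and was higher in all 6 states. Rpl11 had 2893 and 2673 CPM and was lower in all 6. Rps6, the substrate of S6 kinase downstream of mTOR, had 283 and 305 CPM and was higher in all 6.

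**Figure D3:**
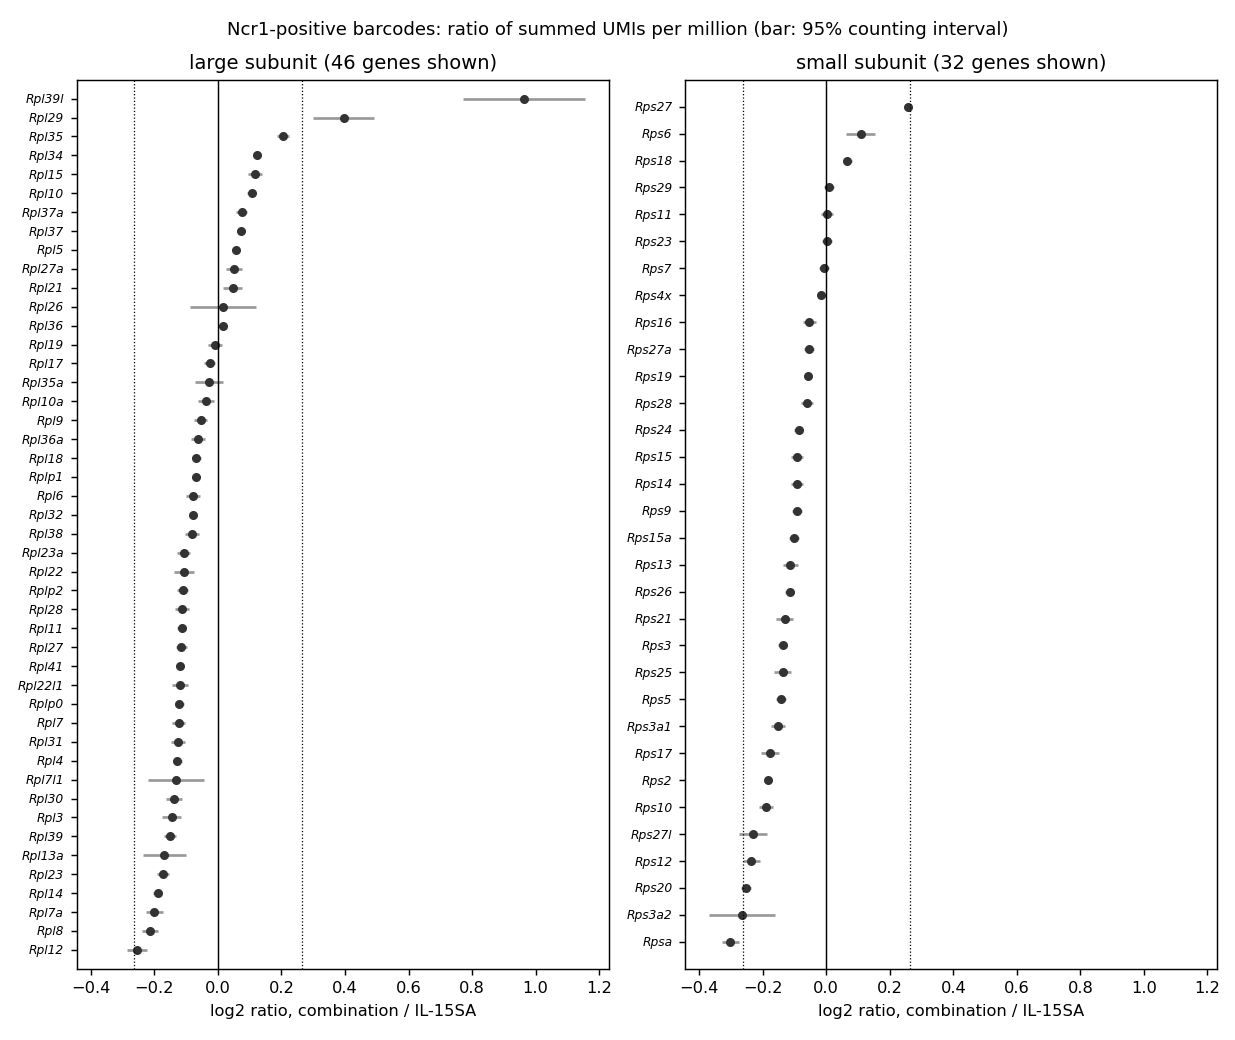
Log2 ratio of CPM, combination over IL-15SA, for 78 of the 80 members at 20 CPM or more, in Ncr1-positive barcodes, with nothing added to either value. Bars are 95% counting intervals, and dotted lines mark 1.2-fold. Most members of either subunit lie between the dotted lines and left of 0, and Rpl39l and Rpl29 lie beyond the right line. Rpsa and, narrowly, Rps3a2 lie beyond the left line.

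Most other genes of protein synthesis were also lower in the combination. The counts below stand beside 55.2% below 0 and a median of -0.02 over all genes tested. Of 5 ribosomal protein genes outside the symbol rule at 20 CPM or more, 4 lay below 0. Rack1, a scaffold on the small subunit, had a log2 ratio of -0.26 and Rpl36al had -0.27, while Fau, which encodes a ubiquitin-like fusion of a small-subunit protein, had 0.16. Of 12 elongation factors and other TOP messenger RNAs, 10 lay below 0 with a median of -0.15, and 3 were at least 1.2-fold lower. The latter were the nucleolar chaperone Npm1 (2481 and 1777 CPM), Hnrnpa1 and Nap1l1. Of 28 initiation factors, 24 lay below 0 with a median of -0.15. At least 1.2-fold lower were 3, the scaffold Eif4g1 with -0.36, Eif5a with -0.31 and Eif3b with -0.30. Ribosome assembly and RNA polymerase I genes differed most: all 26 tested lay below 0, their median was -0.29, and 14 were at least 1.2-fold lower, against 7.3% of all genes. Among these, Nop58, a core protein of methylation-guide particles, had 224 and 169 CPM, Rrs1 49.0 and 37.1, and Tsr1 24.35 and 18.2. Tsr1 passed the filter of 20 CPM only through the IL-15SA library, where it was higher. These ratios pool the states. In clusters 4, 5 and 7, Nop58 had log2 ratios of 0.06, -0.24 and -0.44. Rrs1 had -0.96, -0.23 and -0.34 there, and Tsr1 had -0.91, -0.04 and -0.40. Cluster 4 held only 789810 and 1391949 UMIs in Ncr1-positive barcodes, so its ratios for genes at these levels carry wide counting error. Whether the ratios differ between states was not tested. Matching on UMIs was not done for the gene lists of this paragraph. Of 72 mitochondrial ribosomal protein genes 59 lay below 0 with a median of -0.10, 7 were at least 1.2-fold lower and Mrps36 was the only 1 at least 1.2-fold higher. Of 8 tested genes of ribosome stress and mTOR signalling, which include Trp53, Mdm2, Rps6kb1, Eif4ebp1 and Larp1, 7 lay below 0, with a median of -0.06.

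In tumour-like barcodes the ribosomal protein share ran the other way between the libraries. It was 16.10% (16.04 to 16.16) under IL-15SA and 16.83% (16.79 to 16.86) under the combination, a difference of 0.73 percentage points. Many of these barcodes also held NK transcripts: 364 of 528 and 709 of 1308 had an Ncr1 UMI. In those without one, 164 and 599 barcodes, the share was 16.4% and 17.0%. Depth moved with the share here too. At 1000 to 1500 UMIs, with 137 and 476 barcodes, it was 15.7% and 15.6%, lower in the combination, and in the other 5 bins it was higher there. With barcodes matched on UMIs, 528 in each library, it was 16.1% and 16.6%. Of 80 members, 58 lay above 0 in the combination over the IL-15SA library, where 49.2% of all genes did, with a median of 0.05, and 6 (Rpl29, Rpl35, Rpl35a, Rpl39l, Rps6 and Rps27l) were at least 1.2-fold higher against 14.4% of all genes. The summed tumour or stroma markers stood at 3855 CPM in the tumour-like barcodes of the IL-15SA library and 4523 in those of the combination library. Their part in the shift was not tested.

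Most members had like levels in tumour-like and Ncr1-positive barcodes of the same library. Under IL-15SA 37 lay above and 43 below a log2 ratio of 0, where 60% of all genes lay above, with a median of -0.03 against 0.19 over all genes. Under the combination 53 lay above and 27 below, where 60.9% of all genes lay above, with a median of 0.14 against 0.22. At least 1.5-fold higher in tumour-like barcodes were 4 members under IL-15SA (Rpl39l, Rps21, Rps27l, Rpl37) and 6 under the combination, with Rpl13a and Rpl21 added. These shares are far under the 31.4% and 33.9% of all genes. Under IL-15SA, Rpl39l passed the filter on low values only through the tumour-like barcodes, where it was higher. At least 1.5-fold lower was 1 member under IL-15SA, Rpl29, and 0 under the combination, against 16.3% and 19.2% of all genes. Rps21, a small-subunit protein, had 917 CPM in Ncr1-positive and 1762 in tumour-like barcodes of the IL-15SA library, a ratio of 1.92, and 838 and 1866 under the combination, a ratio of 2.23. In the same order of classes, Rpl37 had 3215 and 5035 CPM under IL-15SA and 3380 and 6011 under the combination. Toward the other end Rps15a had 2472 and 1793 CPM under IL-15SA and 2302 and 1698 under the combination. Rps24, Rpl37a and Rpl17 were likewise 1.27-fold to 1.34-fold lower in tumour-like barcodes of each library.

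**Figure D4:**
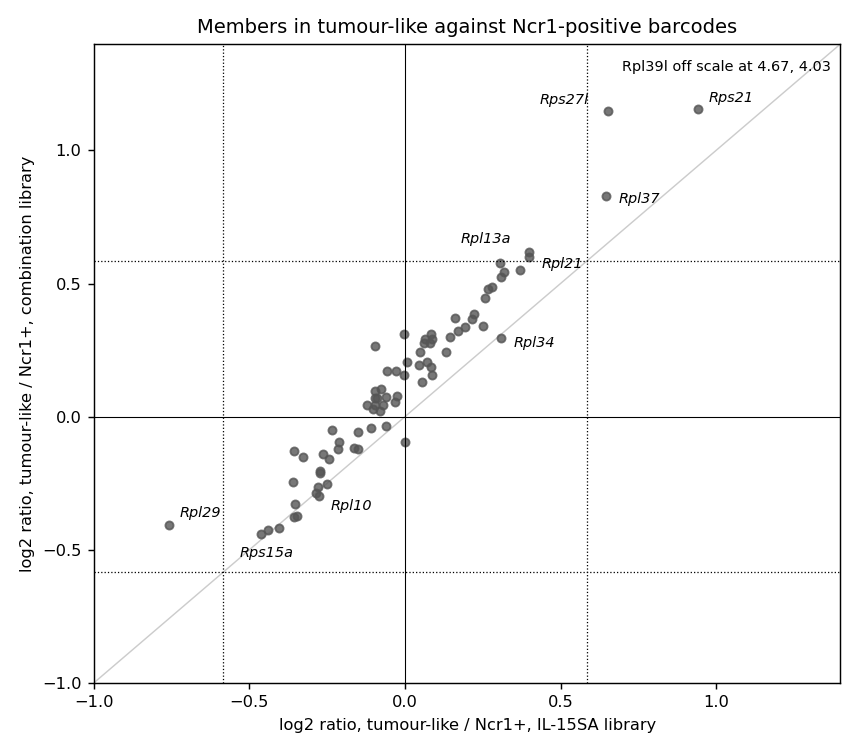
Log2 ratio of CPM, tumour-like over Ncr1-positive barcodes, for 78 of the 80 members at 20 CPM or more, under IL-15SA (x axis) and under the combination (y axis), with 1 CPM added. Dotted lines mark 1.5-fold, the grey line is equality and Rpl39l is beyond the axes. Most points lie within the dotted lines and above the grey line. Rps21, Rps27l and Rpl37 stand to the upper right.

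Among the paralogs, Rpl39l differed most between the cell classes. Rpl39l, whose protein replaces Rpl39 at the peptide tunnel and is known from testis and from many tumour lines, made up 17.8% (16.5 to 19.2) of the UMIs of the Rpl39 pair in tumour-like barcodes of the IL-15SA library. Under the combination it made up 20.2% (19.3 to 21.1). In the Ncr1-positive barcodes its share was 0.771% (0.691 to 0.858) and 1.66% (1.54 to 1.78). Its level was 12.6 CPM (11.3 to 14.1) in Ncr1-positive and 345 CPM in tumour-like barcodes of the IL-15SA library. Under the combination it was 24.7 CPM (22.8 to 26.6) and 417 CPM. Rpl39 itself was at 1627 and 1596 CPM in these classes of the IL-15SA library and at 1465 and 1648 CPM in those of the combination library.

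The higher Rpl39l level in Ncr1-positive barcodes of the combination, 1.95-fold (1.71 to 2.23), stood beside higher sums of tumour markers in the same set. Rpl39l stood at 3.66% of its tumour-like level under IL-15SA and at 5.91% under the combination. The 14 tumour or stroma markers summed to 246 CPM in Ncr1-positive barcodes of the IL-15SA library and 391 CPM in those of the combination library, 6.37% and 8.65% of their tumour-like sums. Cd9, which NK cells may also express, made up 162 and 231 CPM of these sums, at 18.7% and 23.8% of its tumour-like level. The percentages of the sums thus rest largely on Cd9. Pcolce stood at 2.92% and 4.79% of its tumour-like level, Rhox5 at 2.74% and 5.15%, and Col1a2 at 2.14% and 3.88%. Lgals7 stood at 4.10% and 5.45%, while Saa3, under 1 CPM in Ncr1-positive barcodes, went the other way with 10.6% and 0.611%. All 14 were higher in the combination: Rhox5 had 14.0 and 28.3 CPM, Pcolce 25.9 and 54.4, and Col1a2 14.4 and 28.2, while Krt8 and Cxcl5 were under 0.4 CPM in both. In the barcodes with no UMI of any of the 14 markers, 3340 and 3956 in number, Rpl39l remained at 12.6 CPM (10.6 to 14.8) and 23.8 CPM (20.9 to 27.1). The log2 ratio between the libraries was 0.87 in these barcodes and 0.91 over all Ncr1-positive ones. The barcodes without a marker UMI had medians of 2850.5 and 2184.5 UMIs, under the 3201 and 2436 of all Ncr1-positive barcodes. A barcode without a marker UMI can still hold tumour RNA, and the part of such RNA in the difference was not tested. With all Ncr1-positive barcodes matched on UMIs the log2 ratio was 0.71.

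Rps27l, a p53-responsive paralog of Rps27, made up 5.03% (4.93 to 5.13) of the pair's UMIs in Ncr1-positive barcodes of the IL-15SA library and 3.64% (3.56 to 3.72) under the combination. Its share was lower in the combination in all 6 states, and Rps27l was lower and Rps27 higher in each. Depth moved with this difference: with barcodes matched on UMIs the shares were 4.53% and 3.96%. The log2 ratio of Rps27l moved from -0.23 to -0.03 with this matching, and that of Rps27 from 0.26 to 0.17. Within a library it was highest in the dividing cluster 6, at 6.44% and 5.60%, and next in cluster 7, at 5.48% and 3.94%. The other 4 states lay between 3.52% and 4.26% under IL-15SA and between 2.71% and 2.96% under the combination. In tumour-like barcodes the share was 7.69% (7.20 to 8.20) and 8.24% (7.93 to 8.55). Rps27l had 332 and 283 CPM in Ncr1-positive barcodes and 522 and 629 CPM in tumour-like ones. Cdkn1a and Mdm2, other p53 targets, were higher in tumour-like barcodes too, with log2 ratios of 0.99 and 1.42 under IL-15SA and 0.60 and 0.61 under the combination. Of all genes tested, 31.4% and 33.9% were at least 1.5-fold higher there. In the same list Trp53 had 0.07 and 0.25, and the list ran from -0.84 (Nemf) to 3.14 (Eif4ebp1) under IL-15SA. A part of p53 in the Rps27l level was not tested.

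Rpl22l1 held most of its pair's UMIs in every set of over 100 barcodes. Its share was 61.9% (61.5 to 62.4) and 61.7% (61.3 to 62.2) in Ncr1-positive barcodes, a difference within the intervals, and 61.4% and 62.4% with barcodes matched on UMIs. It was higher in clusters 6 and 7, at 63.4% and 63.8% under IL-15SA and 65.2% and 62.5% under the combination, than in the other 4 states, at 56.4% to 60.8% over both libraries. In tumour-like barcodes it was 69.8% (67.9 to 71.6) and 72.6% (71.5 to 73.7). There Rpl22 was lower, at 454 and 425 CPM against 616 and 572, while Rpl22l1 was at 1048 and 1127 CPM against 1002 and 922. Rpl7l1 made up 4.77% and 4.74% of its pair in Ncr1-positive barcodes and 6.72% and 7.26% in tumour-like ones. Rps4l, an annotated pseudogene of Rps4x, went the other way, with 11.6 and 8.47 CPM in Ncr1-positive barcodes and 2.44 and 1.95 CPM, from 4 and 8 UMIs, in tumour-like ones. Rpl3l, known from heart and skeletal muscle, and Rpl10l, known from testis, had no UMI in any barcode.

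**Figure D5:**
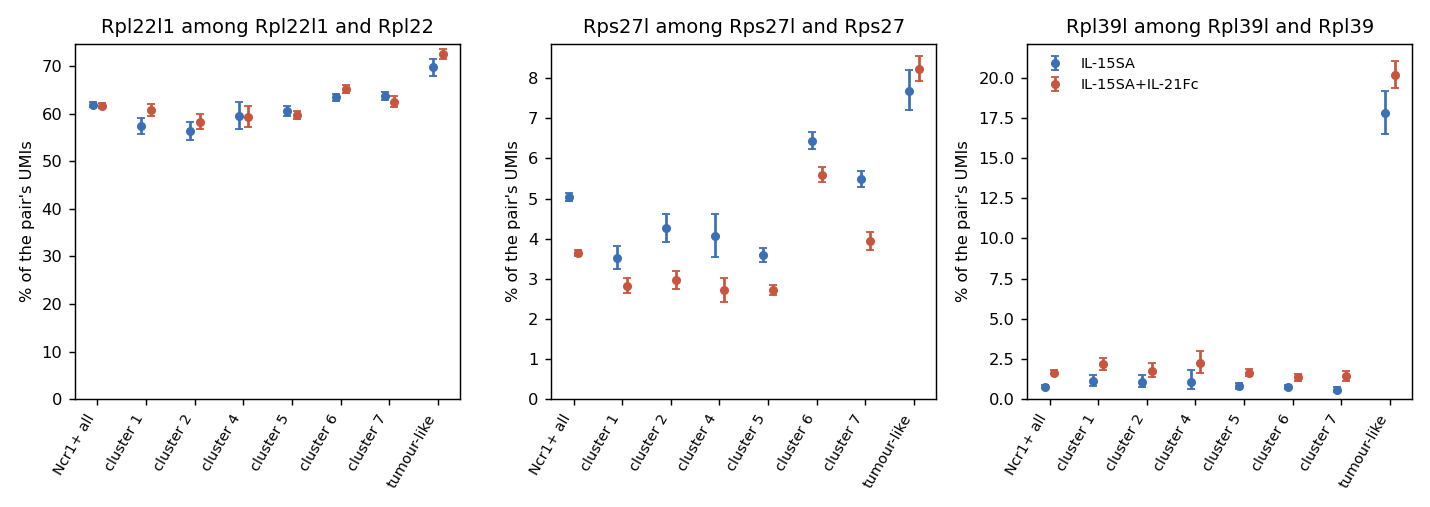
Share of a pair's UMIs taken by Rpl22l1, Rps27l and Rpl39l, in percent, in Ncr1-positive barcodes, 6 of their states and the tumour-like cluster of each library. Bars are 95% counting intervals. Each share is highest in tumour-like barcodes, that of Rps27l is lower in the combination in all 6 states, and that of Rpl39l is low in all NK states.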

How the data were processed

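The libraries came from GEXSCOPE microwell chips, per the labels' protocols. The authors deposited UMI counts per gene and barcode, not normalized and already reduced to called barcodes. The submitters' processing notes name cutadapt, featureCounts, Seurat 4, Scanpy and mm10, without roles. No aligner or annotation is named there. Groups follow the sample titles, although the series title names IL-21 and a combination with IL-15.

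Barcodes under 200 genes or over 20% mitochondrial UMIs were dropped (0 under IL-15SA, 5 under the combination). Scrublet's automatic threshold marked 2 and 1 barcodes, too few to have worked, so the 5% with the highest doublet scores were removed (419 and 622). Clusters came from 2000 variable genes without members or ribosomal protein pseudogenes, 30 principal components, 15 neighbours and Leiden resolution 0.5 (scanpy 1.11.5, Python 3.11.15). A cluster was called tumour-like when at least 3 tumour markers exceeded 5 times the median of all clusters and NK markers were under 0.67 of theirs, thresholds set after clustering. Clusters are given by number and their sizes are not compared.

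UMIs were summed per set and divided by the total. Log2 ratios have 1 CPM added, and genes at 20 CPM or more in either set compared were counted. Intervals are exact Poisson for CPM, exact conditional binomial for ratios and Clopper-Pearson for shares. With 1 library per group there was no test. The sums and ratios were tested on simulated data. The members, lists and rule for named genes (paralogs, the most abundant, the extremes of each contrast, members at 0, and up to 3 genes per list) were chosen with earlier results of these data known. Rpl11, Rps6, Rpl26, Mrps36, the P-stalk genes and members listed only as past a fold in a state or in tumour-like barcodes are named outside the rule, after their values were seen. Alternatives covered the barcodes kept, doublets, the total, the pseudocount, the low-value filter, depth matching and clustering resolution. A few genes stay in the sums and counts but are not reported here by name or in the figures.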

Additional observations from a re-analysis of the deposited data

Results flagged for a closer look

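The difference in ribosomal protein share between the libraries had opposite signs in the NK and the tumour-like barcodes, -0.57 percentage points in Ncr1-positive and 0.73 in tumour-like ones, and this opposition was not tested. The share in cluster 8, a set outside the main states, was 10.5% in the IL-15SA library and 9.96% in the combination library. Ribosomal protein pseudogenes, 291 by symbol and outside the members, took 0.0584% of UMIs in Ncr1-positive barcodes of the IL-15SA library and 0.0517% in the combination library.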

How the results depend on the processing

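No paired analysis was possible because each treatment had 1 library, which also leaves no replicate to leave out. The share in Ncr1-positive barcodes was 16.31% for the IL-15SA library over all barcodes outside the tumour-like cluster. For the IL-15SA and combination libraries it was 16.28% and 15.70% with no doublet removal, 16.63% and 16.08% with mitochondrial and Malat1 UMIs out of the total, 16.36% and 15.78% with pseudogenes, and 16.23% and 15.79% matched on UMIs. The combination was lower under each. Without the 60 shared barcodes (an alternative added after seeing the data) both shares moved by less than their intervals. In tumour-like barcodes the shares were 16.60% and 17.39% without mitochondrial and Malat1 UMIs, and 16.41% and 16.98% in those without an Ncr1 UMI (added after seeing the data). Matched on UMIs (added after seeing the data), the tumour-like share of the combination was 16.60%, above the 16.10% under IL-15SA. Taking only the cluster lowest in NK markers gave the same barcodes, since 1 cluster was tumour-like.

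The span over states was 3.32 and 4.11 percentage points at resolution 1.0, and 3.65 and 3.64 with states matched on UMIs. The median log2 ratio of the members was -0.0725 when centred on all genes, -0.0607 when matched on UMIs and -0.0771 without barcodes holding a tumour marker UMI (added after seeing the data). Members at least 1.2-fold lower were 4 with the total of other genes (Rpl12, Rps3a2 and Rpsa among them), 2 with no filter on low values (Rps4l, Rpsa), 3 over all barcodes outside the tumour-like cluster (Rps3a2 and Rpsa among them), 6 without tumour marker UMIs, and 0 when matched on UMIs, where Rpsa had -0.25. The shares of all genes at least 1.2-fold lower were 8.08%, 5.64%, 7.13%, 11.8% and 3.61% in the same order. Those at least 1.2-fold higher ran from 5.62% to 11.2% over the alternatives. Rpl39l and Rpl29 were at least 1.2-fold higher under all 7 alternatives, and Rps27 joined them when centred on all genes and without tumour marker UMIs. No named member past 1.2-fold changed direction under these alternatives. The pair shares of Rpl22l1, Rps27l and Rpl39l stayed within their intervals over all barcodes outside the tumour-like cluster and with no doublet removal, as did that of Rpl39l without tumour marker UMIs. Matched on UMIs (added after seeing the data), they were 61.4% and 62.4% for Rpl22l1, 4.53% and 3.96% for Rps27l, and 0.842% and 1.53% for Rpl39l. Counting error is small here, and the number of libraries, 1 per group, sets the limit.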
